A study of Rattus norvegicus with 13 samples.

Results

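The skeletal muscle genes described here are 40 genes of 22093 measured in rat hypothalamus, and they encode parts of the contractile machinery of striated muscle and the proteins that release calcium and supply energy to it. They were chosen by measured log2 signals: several of them were lower on the arrays of rats fed safflower oil than on those of rats fed the low-fat diet, and 1 low-fat array, replicate 3, was highest for most of them. Both the fall against low-fat and the height of that array are therefore given as descriptions. The height was not tested, and nothing is read from the test calls printed for the fall. All 40 were on the array under exactly 1 symbol. Myot had several rows, of which the brightest on average stands for it.

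Male Sprague-Dawley rats arrived at 6 to 7 weeks of age, ate 1 of 3 diets freely for 2 months and were killed with carbon dioxide at 14 to 15 weeks. The low-fat diet (4 arrays) supplied 16% of its energy as soybean oil, the flaxseed diet (4 arrays) 35% as flaxseed oil, rich in alpha-linolenic acid, and the safflower diet (5 arrays) 35% as safflower oil, rich in linoleic acid. The hypothalamus, the region at the base of the brain that governs feeding and pituitary hormones, was cut out between the anterior commissure and the mammillary bodies, and 100 ng of its RNA was used for each Affymetrix array. The labels do not say that each array held the RNA of 1 rat, and the p-values measure only the spread between these samples, which may be technical.

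In a muscle fibre, myosin heavy and light chains form the thick filament, and actin, nebulin, tropomyosin and the troponins form the thin filament. Calcium leaves the sarcoplasmic reticulum through the ryanodine receptor, binds troponin C and lets myosin pull on actin. Fast and slow fibres use different versions of many of these proteins, and neither kind of fibre is a part of the hypothalamus. Contractile cells of the brain are the smooth muscle cells and pericytes of its vessels, which use other myosin and actin genes.

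The tissue label was checked first. All 15 markers of hypothalamic neurons were on the array, the highest being Oxt, the gene of the hormone oxytocin, with a mean log2 signal of 12.39. As a mean log2 signal per array, the 15 markers lay between 8.73 and 9.23, and low-fat replicate 3 was at 8.94. Array-wide medians ran from 6.42 to 6.74 and were lower on the safflower arrays (6.42 to 6.59) than on the low-fat arrays (6.67 to 6.74). The median of 1128 olfactory receptor genes, which serves here as a measure of signal with little specific transcript, moved the same way: it was 5.11, 5.07, 4.95 and 4.99 on the low-fat arrays, 4.86, 4.84, 4.95 and 4.83 on the flaxseed arrays and 4.75, 4.79, 4.76, 4.77 and 4.70 on the safflower arrays. All 5 safflower values of that median were below all 4 low-fat values, in the same direction as the muscle genes below, and the part of this background in the muscle results was not tested.

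Low-fat replicate 3 stood apart from the other 12 arrays in the muscle genes. The mean log2 signal of the 40 genes was 7.48, 7.29, 8.88 and 7.25 on the low-fat arrays, 7.17, 7.10, 7.22 and 7.06 on the flaxseed arrays and 7.10, 7.08, 7.15, 7.01 and 7.07 on the safflower arrays. The other 12 arrays spanned 0.47 on the log2 scale, all of it below low-fat replicate 3. Of the 40 genes, 36 had the highest of their 13 values on this array, and 31 of the 35 that were tested. This was true of 1.83% of all 16033 genes tested. For 37 of 40 it was above each other low-fat array, against 10.2% of all genes tested. Counts out of 40, here and below, include 5 genes too dim to be tested, while the shares cover tested genes only.

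**Figure D1:**
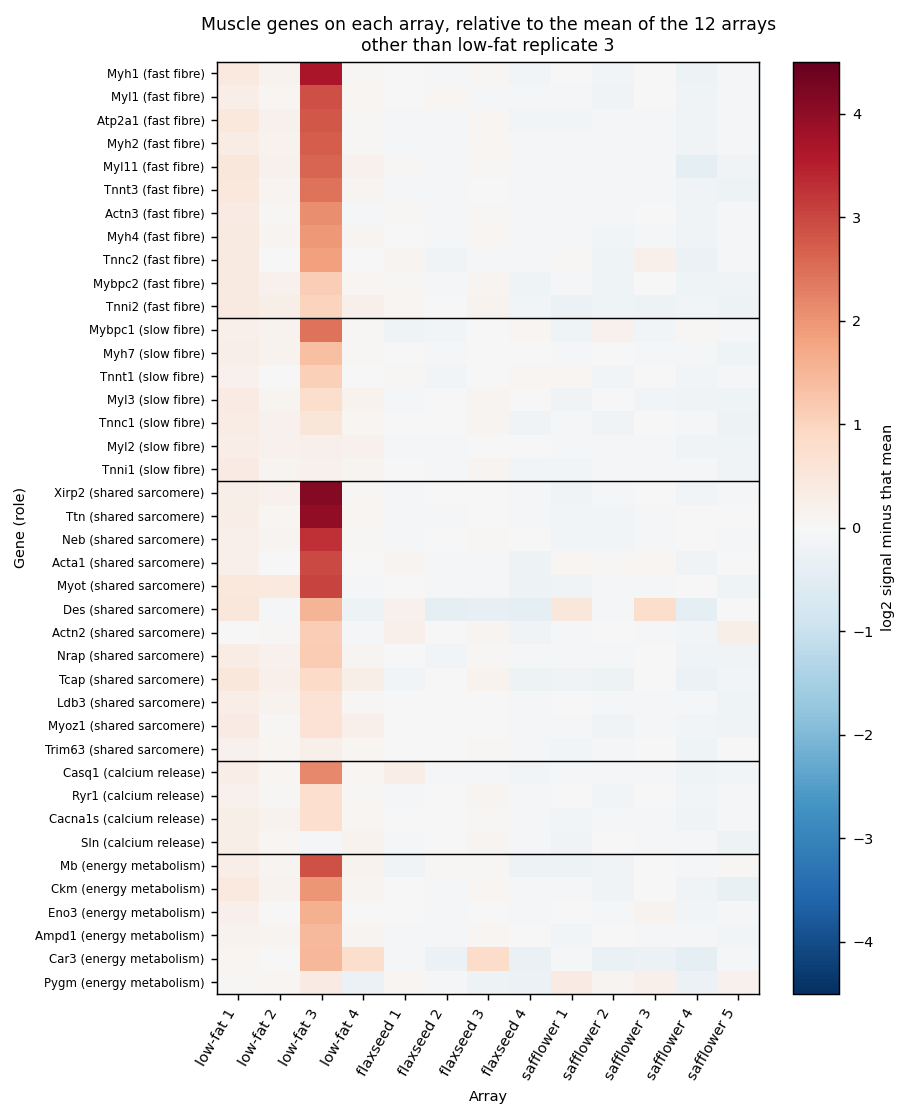
Heat map of the 40 skeletal muscle genes (rows, ordered by role) over the 13 arrays (columns, ordered by diet), coloured by the log2 signal minus the mean of the 12 arrays other than low-fat replicate 3. The column of low-fat replicate 3 is the darkest, and 36 of 40 genes have their highest value in it.

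The size of the excess was read as the log2 signal on low-fat replicate 3 minus the mean of the other 3 low-fat arrays. Its median over the 40 genes was 1.39, or 2.62-fold, and its range ran from -0.26 to 3.95. The excess was at least 1 in 24 of 40 genes and in 19 of the 35 that were tested. This was true of 0.268% of all genes tested, whose median was -0.14. Only 43 of the genes tested reached an excess of 1, and 19 of these 43 were muscle genes of the set. The 19 include Neb and Casq1, which passed the filter for testing only through low-fat replicate 3. The set was chosen in part for being high on this array, so these counts describe that choice. Of the 10 genes tested with the largest excess, 9, Neb among them, belonged to the set. The other one was Tpm2, the beta tropomyosin of striated and smooth muscle, at 2.43. With 1 array there is no replicate of this pattern and no test of it. In tissue RNA, more cells of a type and more RNA per cell cannot be told apart.

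Fast fibre genes had the largest median excess of the 5 role groups. All 11 were highest on low-fat replicate 3, 9 of 11 exceeded the other low-fat arrays by at least 1 on the log2 scale, and the median excess was 2.19 (4.56-fold), with a range from 0.69 to 3.47. Myosin chains led the group.

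Myh1, the heavy chain of type IIX fibres, had log2 signals of 7.24, 6.96, 10.49 and 6.86 on the low-fat arrays, 6.78, 6.76, 6.85 and 6.69 on the flaxseed arrays and 6.78, 6.7, 6.78, 6.59 and 6.73 on the safflower arrays. Low-fat replicate 3 was 3.47 above the mean of the other low-fat arrays, an 11.1-fold ratio, while the other 12 arrays stayed within 0.65 of each other, the low-fat ones just above all flaxseed and safflower arrays. Myl1, the essential light chain of fast myosin, had log2 signals of 5.24, 5.05, 7.85 and 5.04 on the low-fat arrays, 4.94, 5.02, 4.88 and 4.90 on the flaxseed arrays and 4.88, 4.80, 4.93, 4.80 and 4.86 on the safflower arrays. Its excess of 2.74 also rested on a single array, and the other 12 arrays lay between 4.80 and 5.24, too dim for the gene to pass the filter on mean signal.

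Myh4, the heavy chain of type IIB fibres, had log2 signals of 7.16, 6.89, 8.73 and 6.88 on the low-fat arrays, 6.74, 6.72, 6.85 and 6.69 on the flaxseed arrays and 6.67, 6.64, 6.7, 6.60 and 6.68 on the safflower arrays. Without low-fat replicate 3 the low-fat arrays averaged 6.97 ± 0.16 (SD, n = 3), the flaxseed arrays 6.75 ± 0.07 (SD, n = 4) and the safflower arrays 6.66 ± 0.04 (SD, n = 5). All low-fat arrays lay above all flaxseed and safflower arrays, which overlapped each other. Myh2, the heavy chain of type IIA fibres, followed with an excess of 2.55 and Atp2a1, the calcium pump of the fast sarcoplasmic reticulum, with 2.56.

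Myl11, the regulatory light chain of fast myosin, had log2 signals of 7.19, 6.86, 9.29 and 6.89 on the low-fat arrays, 6.72, 6.59, 6.73 and 6.58 on the flaxseed arrays and 6.58, 6.63, 6.63, 6.25 and 6.51 on the safflower arrays. Its excess on low-fat replicate 3 was 2.31 (4.95-fold), and every low-fat array was above every flaxseed and safflower array. Tnnt3, the fast troponin T that ties the troponin complex to tropomyosin, had log2 signals of 7.65, 7.30, 9.62 and 7.32 on the low-fat arrays, 7.14, 7.13, 7.20 and 7.13 on the flaxseed arrays and 7.11, 7.08, 7.13, 7.02 and 6.97 on the safflower arrays. The excess of Tnnt3 was 2.19, and its lowest low-fat value, 7.30, was above its highest flaxseed value, 7.20.

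Tnni2, the inhibitory subunit of fast troponin, showed the smallest excess of the fast genes, 0.69 (1.61-fold). Its log2 signals were 8.52, 8.37, 9.10 and 8.33 on the low-fat arrays, 8.18, 8.12, 8.27 and 7.99 on the flaxseed arrays and 7.84, 7.90, 7.87, 7.97 and 7.87 on the safflower arrays. Here the 3 diets did not overlap: every safflower array was below every flaxseed array, and every flaxseed array below every low-fat array. The remaining fast genes were Tnnc2, the calcium-binding troponin C of fast fibres, with an excess of 1.70, Actn3, the fast alpha-actinin of the Z-disc, with 1.95, and Mybpc2, the fast myosin-binding protein C, with 0.89.

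Fast heavy chain genes lie side by side, and the array separated them from their neighbours. In the order of the RefSeq annotation of GRCr8, Myh3, Myh2, Myh1, Myh4, Myh8 and Myh13 follow one another, with excesses of 0.32, 2.55, 3.47, 1.75, 0.31 and 1.18 on the log2 scale. Myh3 encodes the embryonic and Myh8 the perinatal heavy chain, and Myh13 the heavy chain of the extraocular and laryngeal muscles. The genes on either side, Sco1 and Gas7, were at -0.13 and -0.14, close to the median of all genes tested. The heavy chain genes are near-identical paralogs whose probes may share transcripts, so the division of the excess among them is uncertain.

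Promoters of 4 genes are shown because their genes shared the excess while differing in role: fast heavy chains Myh1 and Myh4, the actin of the thin filament Acta1 and the creatine kinase Ckm. Each is a window of 300 bases around the start site, most of it upstream, from RefSeq's GRCr8 annotation, 5′ to 3′ on the gene's strand: chr10:52384662-52384961 (plus strand), chr10:52421898-52422197 (plus strand), chr19:68784145-68784444 (minus strand) and chr1:88189211-88189510 (plus strand). Capitals mark matches to the E-box CAGCTG, which myogenic factors of the MyoD family bind, to the CArG box of serum response factor and to the site of MEF2 factors.
Myh1: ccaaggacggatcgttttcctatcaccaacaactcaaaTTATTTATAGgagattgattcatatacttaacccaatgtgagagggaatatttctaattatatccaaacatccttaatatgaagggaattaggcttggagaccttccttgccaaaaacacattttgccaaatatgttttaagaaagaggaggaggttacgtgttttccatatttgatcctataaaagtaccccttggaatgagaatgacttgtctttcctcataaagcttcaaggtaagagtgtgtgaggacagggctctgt
Myh4: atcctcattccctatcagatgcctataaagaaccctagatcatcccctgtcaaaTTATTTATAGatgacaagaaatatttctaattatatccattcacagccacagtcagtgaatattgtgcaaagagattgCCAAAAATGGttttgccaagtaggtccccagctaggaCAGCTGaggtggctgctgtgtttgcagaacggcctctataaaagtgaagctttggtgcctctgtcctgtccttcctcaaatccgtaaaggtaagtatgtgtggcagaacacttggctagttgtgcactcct
Acta1: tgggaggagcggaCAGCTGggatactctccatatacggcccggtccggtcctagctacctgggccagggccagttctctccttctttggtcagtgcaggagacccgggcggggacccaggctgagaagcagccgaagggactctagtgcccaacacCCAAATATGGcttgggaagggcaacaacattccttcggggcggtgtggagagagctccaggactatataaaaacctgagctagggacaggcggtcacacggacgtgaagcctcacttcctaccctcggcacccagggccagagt
Ckm: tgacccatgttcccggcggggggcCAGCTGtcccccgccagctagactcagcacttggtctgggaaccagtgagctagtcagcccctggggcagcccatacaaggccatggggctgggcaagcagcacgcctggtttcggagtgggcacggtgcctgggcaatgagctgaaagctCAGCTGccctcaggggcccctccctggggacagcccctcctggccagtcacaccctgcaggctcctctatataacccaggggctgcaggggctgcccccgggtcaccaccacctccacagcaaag
Myh1 and Myh4 held the same MEF2 letters, TTATTTATAG, with the first base at -212 and -196 from the start site. Myh4 also held a CArG box at -118 and an E-box at -81, Acta1 an E-box at -237 and a CArG box at -94, and Ckm E-boxes at -226 and -75.

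Of the 40 genes, 32 had a promoter in the table used. All 3 motifs read the same on both strands, and none of the matches shown overlap. The E-box was in 13 of the 32 promoters and in 15.1% of all 27457 promoters of the same length, the CArG box in 4 and 1.64%, and the MEF2 site in 6 and 3.37%. The MEF2 site was in the windows of Ampd1, Myh1, Myh4, Myoz1, Ttn and Xirp2, and the CArG box in those of Acta1, Ldb3, Myh4 and Myl3. A match is a description of letters, and a window without one says nothing of the factor.

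Slow fibre genes were less uniform. Of 7, 5 were highest on low-fat replicate 3 and 2 exceeded the other low-fat arrays by at least 1 on the log2 scale, with a median excess of 0.56 (1.47-fold) and a range from -0.01 to 2.28. The group means on low-fat replicate 3 were 9.26 for the fast and 8.25 for the slow genes, against 7.07 to 7.38 and 7.40 to 7.60 on the other low-fat arrays. The difference between both groups of genes was not tested.

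Mybpc1, the slow myosin-binding protein C, which fast fibres also contain, had log2 signals of 6.86, 6.76, 9.05 and 6.68 on the low-fat arrays, 6.43, 6.49, 6.58 and 6.71 on the flaxseed arrays and 6.41, 6.80, 6.49, 6.66 and 6.51 on the safflower arrays. Its excess of 2.28 rested on low-fat replicate 3, and the other low-fat arrays (6.68 to 6.86) overlapped the flaxseed arrays (6.43 to 6.71) and the safflower arrays (6.41 to 6.80). Myh7, the heavy chain of slow fibres and of the heart ventricle, had log2 signals of 7.46, 7.33, 8.55 and 7.23 on the low-fat arrays, 7.19, 7.14, 7.20 and 7.16 on the flaxseed arrays and 7.13, 7.18, 7.12, 7.08 and 7.00 on the safflower arrays. It was 1.20 higher on low-fat replicate 3 than on the other low-fat arrays, and all low-fat arrays were above all others.

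Tnnt1, the slow troponin T, had an excess of 0.99 on the log2 scale, Myl3, the essential light chain of slow and ventricular muscle, 0.56, and Tnnc1, the troponin C of slow and cardiac muscle, 0.35. Tnni1, the slow troponin I, and Myl2, the regulatory light chain of slow and ventricular muscle, were at -0.01 and 0.02. For both of these genes low-fat replicate 1 was the highest array. Tnnt1 lies next to the cardiac troponin I gene Tnni3 in GRCr8, which was at -0.26.

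**Figure D2:**
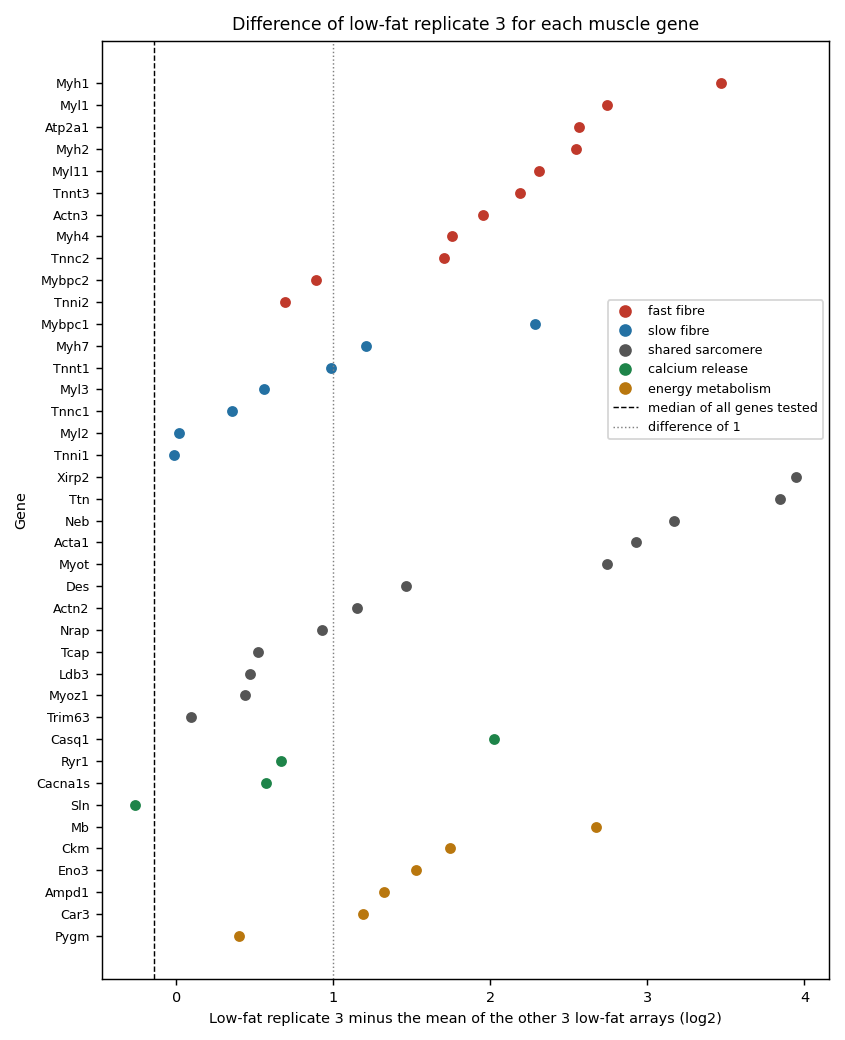
Log2 signal on low-fat replicate 3 minus the mean of the other 3 low-fat arrays (horizontal axis, log2 units) for each of the 40 genes (rows, coloured by role), with a dashed line at the median of all genes tested, -0.14, and a dotted line at 1. Fast fibre genes lie between 0.69 and 3.47 and slow fibre genes between -0.01 and 2.28.

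Genes of the sarcomere that all fibres share held the largest values. All 12 were highest on low-fat replicate 3, and 7 of 12 exceeded the other low-fat arrays by at least 1 on the log2 scale (median 1.31, 2.47-fold, range 0.09 to 3.95). Xirp2, an actin-binding protein found at muscle-tendon junctions and at the discs between heart cells, had log2 signals of 5.33, 5.24, 9.18 and 5.12 on the low-fat arrays, 5.0, 5.04, 5.07 and 5.02 on the flaxseed arrays and 4.91, 4.99, 5.08, 4.93 and 4.96 on the safflower arrays. Its excess was 3.95 (15.4-fold), the largest of the 40 genes. Ttn, the giant protein titin that spans the sarcomere from Z-disc to M-line, had log2 signals of 6.33, 6.11, 10.02 and 6.10 on the low-fat arrays, 5.96, 5.98, 6.02 and 5.92 on the flaxseed arrays and 5.90, 5.91, 5.98, 5.99 and 6.02 on the safflower arrays. Ttn reached an excess of 3.84 (14.3-fold). Both Ttn and Xirp2 were too dim on the other 12 arrays to pass the filter, and within those 12 arrays the low-fat values were the highest.

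Nebulin (Neb), the ruler of the thin filament, had an excess of 3.17, skeletal actin (Acta1) 2.93 and myotilin (Myot), an actin-crosslinking protein of the Z-disc, 2.74. Desmin (Des), the intermediate filament around the myofibrils, was at 1.46 and Actn2, the alpha-actinin of all fibres, of the heart and of neurons, at 1.15. Nrap, an actin-binding protein of forming myofibrils, was at 0.92, the Z-disc proteins Ldb3 and Myoz1 at 0.47 and 0.44, and Trim63, a ubiquitin ligase of muscle wasting, at 0.09.

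Tcap, the telethonin that caps titin at the Z-disc, had log2 signals of 7.66, 7.38, 8.01 and 7.42 on the low-fat arrays, 7.03, 7.16, 7.31 and 6.93 on the flaxseed arrays and 7.00, 6.94, 7.14, 6.90 and 7.04 on the safflower arrays. Its excess was only 0.52 (1.43-fold), yet every low-fat array was above every flaxseed and safflower array, with low-fat values from 7.38 up and flaxseed values to 7.31. The safflower and flaxseed arrays overlapped.

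Calcium release genes were mostly modest. Of 4, 3 were highest on low-fat replicate 3 and 1 exceeded the other low-fat arrays by at least 1 on the log2 scale (median 0.62, range -0.26 to 2.02). Casq1, calsequestrin, which stores calcium in the reticulum of fast fibres, had log2 signals of 6.81, 6.58, 8.68 and 6.58 on the low-fat arrays, 6.80, 6.41, 6.47 and 6.39 on the flaxseed arrays and 6.44, 6.43, 6.47, 6.32 and 6.39 on the safflower arrays. The excess of 2.02 came with flaxseed replicate 1 at 6.80, level with low-fat replicate 1, so those diets overlapped. Ryr1, the release channel, had log2 signals of 7.61, 7.49, 8.19 and 7.46 on the low-fat arrays, 7.38, 7.39, 7.54 and 7.38 on the flaxseed arrays and 7.39, 7.31, 7.40, 7.31 and 7.38 on the safflower arrays. Its excess was 0.67, and flaxseed replicate 3 lay within the range of the low-fat arrays. Cacna1s, the voltage sensor that opens the channel, was at 0.57, and sarcolipin (Sln), an inhibitor of the calcium pump, was at -0.26 and highest on low-fat replicate 1.

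Genes of energy supply came next to the fast fibre genes in their median excess. Of 6, 5 were highest on low-fat replicate 3 and 5 exceeded the other low-fat arrays by at least 1 on the log2 scale (median 1.42, 2.68-fold, range 0.40 to 2.67). Mb, the oxygen store myoglobin, had log2 signals of 7.67, 7.50, 10.24 and 7.54 on the low-fat arrays, 7.22, 7.42, 7.43 and 7.15 on the flaxseed arrays and 7.13, 7.21, 7.37, 7.33 and 7.42 on the safflower arrays. Its excess was 2.67 (6.38-fold), and all low-fat arrays were above all others. Ckm, the muscle creatine kinase that refills ATP from phosphocreatine, had log2 signals of 8.74, 8.46, 10.29 and 8.42 on the low-fat arrays, 8.34, 8.25, 8.39 and 8.23 on the flaxseed arrays and 8.26, 8.16, 8.29, 8.15 and 7.98 on the safflower arrays. Ckm had an excess of 1.74 (3.35-fold) with the same separation: the lowest low-fat array was at 8.42 and the highest flaxseed array at 8.39.

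Car3, a carbonic anhydrase of slow fibres and of fat cells, had log2 signals of 7.67, 7.61, 9.07 and 8.37 on the low-fat arrays, 7.51, 7.34, 8.43 and 7.28 on the flaxseed arrays and 7.52, 7.29, 7.34, 7.15 and 7.55 on the safflower arrays. It was high not only on low-fat replicate 3 but also on low-fat replicate 4 and flaxseed replicate 3, and its range of 1.27 over the 12 arrays without low-fat replicate 3 was the widest of the 40 genes. The flaxseed and low-fat arrays overlapped. Eno3, the enolase of muscle, had an excess of 1.53 and Ampd1, the AMP deaminase of muscle, 1.32. Pygm, the muscle form of glycogen phosphorylase, which astrocytes also express, was at 0.40 and highest on safflower replicate 1.

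Other skeletal muscle genes outside the set were examined from a further list of 46, of which 42 were on the array. Low-fat replicate 3 was the highest array for 28 of 42 (66.7%), against 1.83% of all genes tested. On the log2 scale 4 of 42 (9.52%) exceeded the other low-fat arrays by at least 1, against 0.268%. The median excess of the 42 was 0.27, against -0.14 for all genes tested. The 42 include genes too dim to be tested. The 5 largest were triadin (Trdn), which anchors calsequestrin to the release channel, at 2.93, Klhl41, a stabilizer of nebulin, at 1.44, the M-band protein Myom2 at 1.10, the muscle subunit of cytochrome c oxidase Cox6a2 at 1.06 and the actin capping protein Tmod4 at 0.76. Trdn read 8.83 on low-fat replicate 3 and between 5.74 and 6.33 on the other 12 arrays.

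The genes tested outside the set whose pattern was most like the mean of the 35 tested members over the 13 arrays were Thbs4, Mylk2, Myh13, Ankrd23, Tmod4, Tpm2, Fitm1, Cox6a2, Adss1 and Srl, with Pearson r from 0.937 to 0.984. These correlations rest largely on low-fat replicate 3, where the 10 genes exceeded the other low-fat arrays by log2 differences of 0.41 to 2.43. Over the 12 arrays without it the 5 most similar genes were Dnah17, Tmem247, Col13a1, Cela1 and Rbm20 (r from 0.985 to 0.990), and none of the first 10 was among them. These 5 were lower on low-fat replicate 3 than on the other low-fat arrays, by -0.23 to -0.33 on the log2 scale.

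Markers of other tissues that could be cut along with the hypothalamus gave these values on low-fat replicate 3. None of 7 myogenic transcription factors and fusion genes on the array (Myod1, Myog and Myf5 among them) was highest there, and their median difference from the other low-fat arrays was -0.24 on the log2 scale. None of 7 heart markers was highest there (median -0.11), nor any of 12 smooth muscle and mural cell markers (-0.18), 5 peripheral nerve markers (-0.20), 8 blood markers (0.37) or 15 hypothalamic markers (-0.09). The counts were 1 of 10 for fat (Plin4, 0.44), 3 of 12 for connective tissue and meninges (Thbs4, 0.92, Col1a1, 0.52 and Tnmd, 0.45), 1 of 7 for bone, cartilage and epithelium and 1 of 10 for the pituitary (Gh1, 0.11).

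Levels of these lists on low-fat replicate 3 beside the other 12 arrays were as follows, as mean log2 signals. Fat markers averaged 6.98, within the range of 6.79 to 7.20, and connective and meningeal markers 8.0, within 7.58 to 8.19. Blood markers averaged 9.16, within 8.12 to 9.43, and pituitary markers 6.96, above 6.20 to 6.90. The heart list averaged 7.53, within 7.23 to 7.73, the nerve list 7.29, within 7.15 to 7.58, and the myogenic list 6.60, within 6.44 to 6.99. For the genes with the highest signal in these lists, low-fat replicate 3 differed from the other low-fat arrays by at most 0.44 apart from Cga, with Pax7 at -0.44, Nppa at -0.14, Rgs5 at 0.12, Cfd at -0.18, Ogn at 0.11, Prph at -0.20, Col2a1 at -0.18 and Hba-a1 at 0.31 on the log2 scale. Among the pituitary genes Cga and Tshb, the subunits of thyrotropin, were 1.18 and 1.39 above the other low-fat arrays, but Cga was higher on flaxseed replicate 4 (11.05) and Tshb on flaxseed replicate 2 (7.73). The part of fat, connective tissue, blood or pituitary RNA in the muscle signal was not tested.

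**Figure D3:**
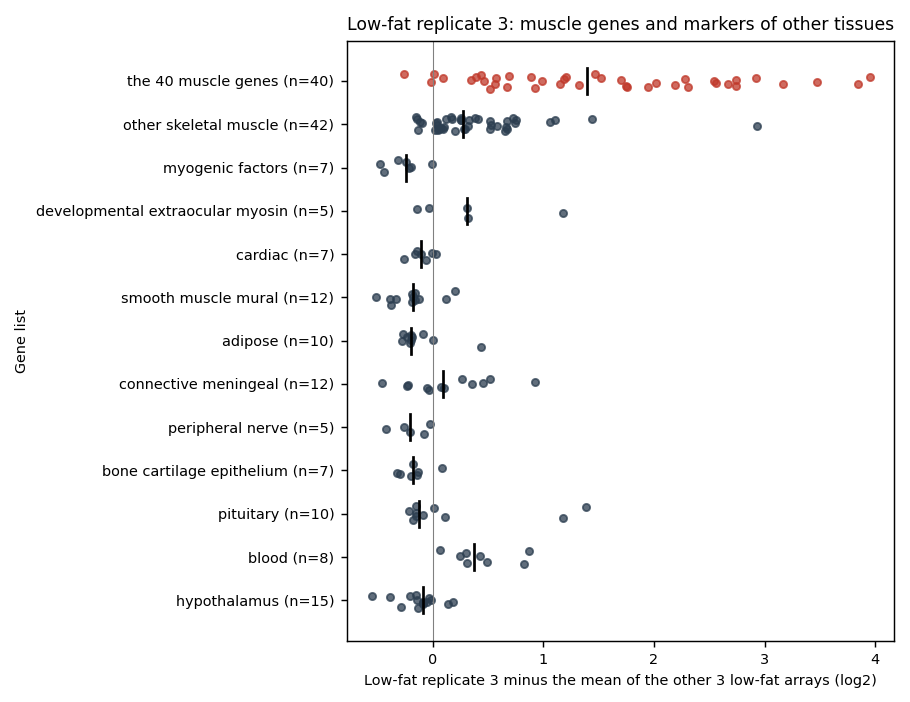
Log2 signal on low-fat replicate 3 minus the mean of the other 3 low-fat arrays (horizontal axis, log2 units) for every gene (points) of the 40 muscle genes (red) and of each other list (rows), with a vertical bar at the median of the list. The median is 1.39 for the 40 muscle genes and between -0.24 and 0.37 for the other lists.

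On the remaining 12 arrays the muscle genes varied little, and their mean followed the olfactory receptor background across the diets. The range over those arrays was under 1 on the log2 scale for 38 of 40 genes, the exceptions being Car3 (1.27) and Des (1.24). Averaged over the 40 genes, the log2 signal stood at 7.34 ± 0.12 (SD, n = 3) for the low-fat arrays without replicate 3, 7.14 ± 0.07 (SD, n = 4) on the flaxseed arrays and 7.08 ± 0.05 (SD, n = 5) on the safflower arrays. Low-fat replicate 1 was then the highest array for 36 of 40 genes, which was true of 25.3% of all genes tested.

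Fast and slow fibre genes kept the same order without low-fat replicate 3. The fast genes averaged 7.19 ± 0.17 (SD, n = 3), 6.95 ± 0.06 (SD, n = 4) and 6.86 ± 0.06 (SD, n = 5) on the low-fat, flaxseed and safflower arrays, on the log2 scale. The slow genes averaged 7.48 ± 0.11 (SD, n = 3), 7.29 ± 0.05 (SD, n = 4) and 7.21 ± 0.04 (SD, n = 5). The olfactory receptor medians had the same order: 5.06 ± 0.06 (SD, n = 3), 4.87 ± 0.05 (SD, n = 4) and 4.75 ± 0.04 (SD, n = 5). The order was not particular to muscle genes. Heart markers averaged 7.63, 7.47 and 7.35, fat markers 7.1, 6.9 and 6.82 and nerve markers 7.48, 7.32 and 7.23. The bone and myogenic lists had this order too, but the smooth muscle, connective, pituitary, blood and hypothalamic lists did not. As a description over these 12 arrays, which share diets and array-wide signal, Pearson r between the mean of the 40 genes and the olfactory receptor median was 0.889. Single genes had a median r of 0.872 with it, above 0.8 in 25 of 40, from -0.287 for Pygm to 0.964 for Tnni2. The part of background signal in the order of the diets was not tested.

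**Figure D4:**
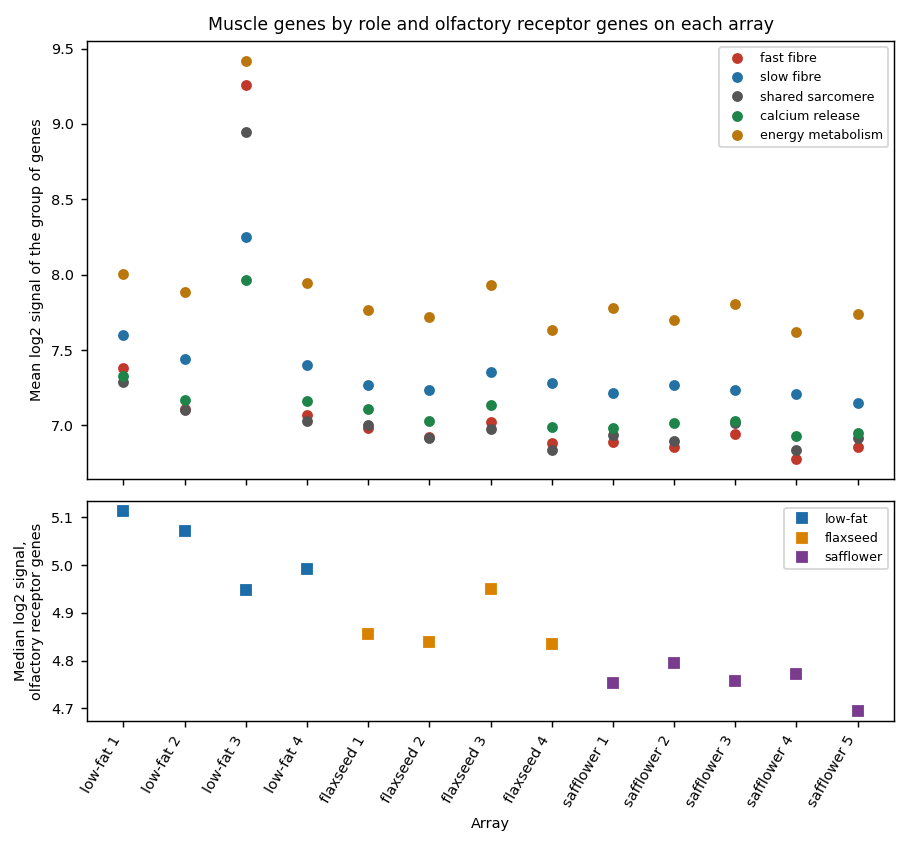
Upper panel, mean log2 signal of each role group of muscle genes on each of the 13 arrays, and lower panel, median log2 signal of 1128 olfactory receptor genes on the same arrays, coloured by diet (the axes do not start at 0). Low-fat replicate 3 stands out in the fast genes (9.26) and slow genes (8.25) but not in the olfactory receptor median (4.95).

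Desmin varied with the markers of the vessel wall on the 12 arrays other than low-fat replicate 3. Des had log2 signals of 8.07, 7.47, 9.09 and 7.32 on the low-fat arrays, 7.74, 7.16, 7.18 and 7.16 on the flaxseed arrays and 8.06, 7.50, 8.34, 7.10 and 7.55 on the safflower arrays. The mean of the 12 smooth muscle and mural markers was 8.53, 8.19, 8.02 and 7.89 on the low-fat arrays, 8.38, 8.0, 7.87 and 7.91 on the flaxseed arrays and 8.41, 8.27, 8.68, 7.92 and 8.26 on the safflower arrays. Low-fat replicate 1, flaxseed replicate 1 and safflower replicates 1 and 3 were high in both. Low-fat replicate 3 had the highest Des value, 9.09, but its marker mean, 8.02, was below those of low-fat replicates 1 and 2. Desmin is a filament of vascular smooth muscle too, and the part of vessel wall RNA in its signal was not tested. Over the 12 arrays without low-fat replicate 3, Pearson r with that mean was 0.956 for Des, 0.861 for Pygm and 0.823 for Acta1, again as a description.

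Safflower against low-fat was the comparison from which members were chosen, and its values are a description. The 40 genes had a median log2 change of -0.61, 39 of 40 below 0, beside a median of 0.07 over all genes tested. Leaving out low-fat replicate 3 brought the median to -0.265 and turned the sign of Actn2 (0.03) and Des (0.08). The medians with and without that array were -0.90 and -0.32 for the fast genes, -0.40 and -0.31 for the slow genes, -0.58 and -0.24 for the shared sarcomere genes, -0.37 and -0.25 for the calcium genes and -0.68 and -0.25 for the energy genes. The gap between fast and slow genes was thus present with low-fat replicate 3 and near 0 without it.

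Of the 40 genes, 35 passed the filter for testing (a mean log2 signal of at least 6.58, the median over all rows of the array), and Neb and Casq1 did so only through low-fat replicate 3. The 5 that did not pass were Myl1, Ttn, Myot, Xirp2 and Ampd1. Since members were chosen on this comparison, the shares of all genes are printed beside its calls and nothing is read from them. In the limma fit 20 of 35 were called lower in safflower (16.9% of all genes tested), and 25 of 35 without low-fat replicate 3 (21.2%). Of the first 20 calls, 19 were among the 25, and Car3 was not, while Neb and Casq1 were among the 25 although they had passed the filter only through the array left out. Leaving out safflower replicate 5 brought the count to 13 (12.8%). These calls also depended on scaling: quantile normalization of all rows of the array left 6 lower calls (4.37% of all genes tested). Quantile normalization without low-fat replicate 3, a setting chosen after seeing the data, left 8 (8.42%). Cyclic loess and median centring left 5 each, where 6.19% and 1.04% of all genes tested were called lower. The 8 were Ckm, Myl2, Myl3, Myoz1, Tcap, Tnnc1, Tnni1 and Tnni2.

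Single genes show the same dependence. The log2 change of Myh1 was -1.18 ± 0.53 (SE) with all arrays and -0.31 ± 0.08 without low-fat replicate 3, and that of Ckm -0.81 ± 0.27 and -0.37 ± 0.09. Tcap moved less, from -0.61 ± 0.11 to -0.48 ± 0.09, and Tnni2 from -0.69 ± 0.12 to -0.52 ± 0.07. For 29 of 40 genes all safflower arrays were below all low-fat arrays, against 12.5% of all genes tested and 40.8% of the olfactory receptor genes.

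**Figure D5:**
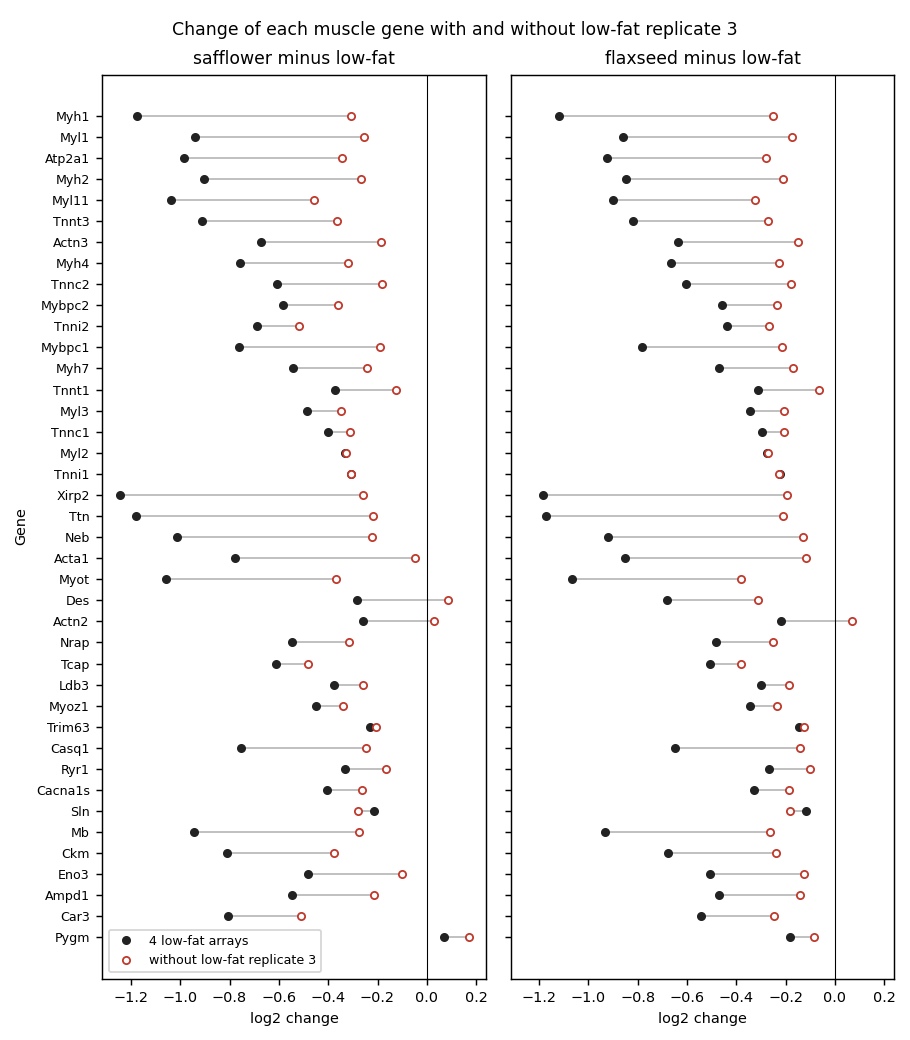
Log2 change (horizontal axis) of each of the 40 genes (rows, in role order) in safflower (left) and flaxseed (right) against low-fat, with all arrays (filled) and without low-fat replicate 3 (open). Leaving out this array moves the median of the 40 genes from -0.61 to -0.265 for safflower and from -0.53 to -0.21 for flaxseed.

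Flaxseed against low-fat shares its low-fat arrays with that comparison. The 40 genes had a median log2 change of -0.53, with all 40 below 0, and -0.21 without low-fat replicate 3, beside 0.05 over all genes tested. No gene of the 35 tested passed limma's threshold of 0.05, and 0% of all 16033 genes did, while 20 of 35 had an unadjusted p under 0.05, against 20.1% of all genes tested. Limma with array weights called 10 of 35, all lower, in a fit that called 13.8% of all genes tested lower. For 22 of 40 genes all flaxseed arrays were below all low-fat arrays, against 2.44% of all genes tested and 12.4% of the olfactory receptor genes. The genes were chosen in part for high values on these same low-fat arrays, so nothing is read from these counts. The largest change with an unadjusted p under 0.05 among the genes given on every array was that of Mb, -0.93 ± 0.43 (SE, limma adjusted p = 0.247), and that of Tcap was -0.51 ± 0.12 (SE, limma adjusted p = 0.205).

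The change of safflower against flaxseed does not involve the low-fat arrays but shares its safflower arrays with the choosing comparison. Its SE and p-values do involve the low-fat arrays, since the fit pools the spread within all 3 diets. The SE of Myh1 was 0.53 with all arrays and 0.07 without low-fat replicate 3. The median log2 change of the 40 genes was -0.07, with 34 of 40 below 0. Its direction turned with scaling, to 0.01 after quantile normalization and 0.04 after median centring. No gene of the 35 passed limma's threshold, and 0% of all genes tested passed. None of the 35 had an unadjusted p under 0.05, against 15.5% of all genes tested. The genes were chosen in part for a high low-fat replicate 3, which widens their SE, so nothing is read from this count. Limma with array weights called 3 of the 35 (2 higher and 1 lower), in a fit that called 29.1% of all genes tested. All safflower arrays were below all flaxseed arrays for 2 of 40 genes, Tnni2 and Myoz1, against 3.7% of all genes tested. The log2 change was -0.25 ± 0.12 for Tnni2 (SE, limma adjusted p = 0.334) and -0.10 ± 0.09 for Myoz1 (SE, limma adjusted p = 0.557).

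The other skeletal muscle list had 28 genes tested. In limma 24 of 28 were called lower in safflower than in low-fat, against 16.9% of all genes tested. Without low-fat replicate 3 this was 19 of 28, against 21.2%, and after quantile normalization 7 of 28, against 4.37%. The median log2 change of the 42 genes was -0.33, -0.24 without low-fat replicate 3 and -0.07 with quantile normalization and without that array. The part of the olfactory receptor background in these values was not tested. For flaxseed against low-fat limma called none, with 21 of 28 at an unadjusted p under 0.05 (20.1% of all genes tested) and 16 called lower with array weights (13.8%). For safflower against flaxseed it called none, with 3 of 28 at an unadjusted p under 0.05 (15.5%) and 3 with array weights (29.1%).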

How the data were processed

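RNA of 13 hypothalamus samples was measured on Affymetrix arrays. The deposited table holds log2 values for 70580 transcript clusters, which the authors made with RMA. Affymetrix Expression Console and Transcriptome Analysis Console are also named, per the submitters' processing notes, and versions and the genome build are not given in the sources used here. RMA includes quantile normalization of probes, yet array medians still differed by diet. No hybridisation batch was given, and the number of arrays limits the precision.

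Rows with exactly 1 gene symbol were kept (23446, giving 22093 genes, with the row of highest mean for each gene), and 16033 genes with a mean of at least 6.58 were tested. The 3 diet means were fitted with limma 3.58.1 in R 4.3.3 on all 13 arrays, with 10 residual degrees of freedom, two-sided tests and Benjamini-Hochberg adjustment over all genes tested at 0.05. The script was tested on simulated data. Each array was grouped by the diet in its label.

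The members and lists were chosen with earlier results of these data known. Values on every array are given for Myl11, Tnnt3, Ckm, Myh4, Tnni2, Tcap and Car3 and for the 2 members of each role with the largest difference between low-fat replicate 3 and the other low-fat arrays, and for Des, chosen after its values were seen. Of the other muscle list the 5 with the largest such difference are named. Likeness was Pearson r with the mean of the members tested, leaving out provisional symbols and olfactory and vomeronasal receptors. Alternatives were quantile, cyclic loess and median scaling, array weights, a robust trend, no filter, the mean over rows, a replicate block and leaving out each array. Promoter sequences and gene order are RefSeq's for GRCr8.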

Additional observations from a re-analysis of the deposited data

Results flagged for a closer look

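For each gene and each diet group the gap between the most extreme array and its nearest neighbour was divided by the range of the group, and a share above Dixon's critical value (0.829 for 4 arrays, 0.710 for 5) was taken as an array far from the others. Of 120 such checks, 21 passed, and 18 of the 21 were on low-fat replicate 3. Chance alone passes about 1 in 20 groups of independent values, but the genes move together and were chosen in part because this array was high, so the shares on it describe that choice and test nothing.

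Among the fast fibre genes, low-fat replicate 3 lay far above the other low-fat arrays in Myl11 (share 0.864), Tnnt3 (0.847), Myh4 (0.850), Myh1 (0.896), Myh2 (0.894), Myl1 (0.926) and Atp2a1 (0.853). Among the slow fibre genes this held for Mybpc1 (0.924). Among the shared sarcomere genes it held for Acta1 (0.916), Actn2 (0.883), Ttn (0.943), Neb (0.951), Myot (0.836) and Xirp2 (0.950). It also held for Casq1 (0.891), Mb (0.935), Eno3 (0.848) and Ampd1 (0.962).

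Within the flaxseed group, the share passed for replicate 3 in Tnnt3 (0.853) and Ryr1 (0.892), with log2 signals of 7.20 and 7.54. It passed for replicate 1 in Des (0.967), with a log2 signal of 7.74. The share is relative to the range of the group, which was small: 7.13 to 7.20 for Tnnt3, 7.38 to 7.54 for Ryr1 and 7.16 to 7.74 for Des. No safflower array was far from the others in any of the 40 genes.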

How the results depend on the processing

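For safflower against low-fat, 20 muscle genes were called lower, where 16.9% of all genes tested were. This count fell to 5 with cyclic loess (6.19% of all genes tested), 5 with median centring (1.04%) and 6 with quantile normalization (4.37%). It was 8 (8.42%) with quantile normalization without low-fat replicate 3, a setting chosen after seeing the data. Leaving out 1 array at a time gave 13 (without safflower replicate 5, where 12.8% of all genes tested were called lower) to 26. The median change of the 40 genes was -0.12 under quantile normalization without low-fat replicate 3, where 7 of 40 genes changed sign: Tnnt1 (0.0459), Mybpc1 (0.0205), Actn2 (0.0634), Des (0.1581), Ttn (0.0078), Ampd1 (0.0092) and Pygm (-0.0914). Beside the same shares of all genes called lower, the other skeletal muscle genes went from 24 calls to 8 with cyclic loess and 7 with quantile normalization. They had 5 calls with quantile normalization without low-fat replicate 3 and 2 with median centring, 1 of them higher. Median centring moved the median of all genes tested for this comparison from 0.07 to 0.28. With array weights, flaxseed against low-fat had 10 calls among the members and 16 among the other muscle genes (13.8% of all genes tested called lower). Safflower against flaxseed had 3 and 3 (29.1% of all genes tested called). The median excess of low-fat replicate 3 was 1.19 over the 35 members tested instead of 1.39. The causes were not tested. Same-numbered arrays of different diets deviated together for numbers 1 and 4 (correlations from 0.195 to 0.433) but not for numbers 2 and 3 (-0.264 to 0.176), so the numbers were not taken to pair the arrays. With the replicate block, 19 members were called for safflower against low-fat and 0 in the other comparisons. The shares of all genes tested are not given for this fit or for the count of 26, so nothing is read from either. The median of safflower against flaxseed, -0.07, changed sign to 0.01 with quantile normalization or cyclic loess and 0.04 with median centring, by less than the replicate spread. Of the values of the 16 genes given on every array, Des left out, 386 stayed within the replicate spread, 28 moved further and 2 changed sign.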
